A study of Mus musculus with 9 samples.

Results

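The genes compared here are a module of 44 genes of the cell cycle and DNA replication, of which 43 were measured among the 19938 genes of the array. They were members by name: each listed symbol was matched to the array features annotated with that symbol alone, and where several were found the one with the highest mean signal stood for the gene. Ccnb1 was not analysed here. By textbook role, 21 of the measured members act in S phase (helicase, licensing, clamp, nucleotide supply, cyclin E, E2F factors, checkpoint and methylation upkeep) and 22 act in mitosis (cyclins and Cdk1, kinases, spindle checkpoint, passenger complex, motors, kinetochore, transcription factors and chromosome structure).

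RNA came from snap-frozen mammary tumours grown from the mouse lines NDL, Met1 and SSM2, each a transplantable cell line with 3 arrays, and the values are the authors' log2 signals from RMA, a procedure of background correction, quantile normalisation and probe summary. As background on the models, NDL carries an activated ErbB2 (neu) transgene driven by the MMTV promoter, Met1 derives from a mammary tumour of the polyoma middle T model under the same promoter, and SSM2 expresses hormone receptors. All 3 lines were passaged in culture and then placed in fat pads of FVB/NJ females 6 to 8 weeks old, which keep their own immune and stromal cells, and tumours were taken at 5 to 10 mm. No group was treated, and there was no normal mammary gland to set the tumours against. Whether the 3 samples of a line were taken from different mice or tumours is not in the labels, so n is a number of samples, and p-values rest on the spread among samples alone. In such whole tumours, fewer cells of a type and less RNA per cell cannot be told apart.

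Cells copy their DNA in S phase, after the MCM helicase has been loaded on replication origins by Cdc6 and Cdt1 and after E2F factors have switched on the genes for nucleotide synthesis and replication. They then divide in mitosis, driven by Cdk1 with its cyclins and by the Aurora and Polo kinases, while the spindle checkpoint holds chromosome separation until kinetochores are attached. Transcripts of both phases fall to low levels in resting cells, and in mouse and human cells mitotic genes are held down and later activated through a promoter element, the CHR, that is often paired with CCAAT boxes.

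Promoter windows from RefSeq (GRCm38.p6, 250 bases before to 50 after the annotated start) were at hand for 37 of the 44 members, in 40 windows. The 4 printed here were chosen because their genes carry the differences described further on: E2f8 and Cdt1 from S phase, Ndc80 and Bub1 from mitosis. E2f8 is at chr7:48881547-48881846 (minus strand), Cdt1 at chr8:122567765-122568064 (plus strand), Ndc80 at chr17:71526808-71527107 (minus strand) and Bub1 at chr2:127831810-127832109 (minus strand), each printed 5′ to 3′ along its gene. Capitals mark letters matched on either strand: the CHR, which was spelled TTTGAA or as its variant TTCGAA, the box CCAAT, and E2F cores. The cores searched were spelled TTCCCGC in a first form, with TTGGCGC as another, and further TTCGCGC as well as the form TTGCCGC.
E2f8: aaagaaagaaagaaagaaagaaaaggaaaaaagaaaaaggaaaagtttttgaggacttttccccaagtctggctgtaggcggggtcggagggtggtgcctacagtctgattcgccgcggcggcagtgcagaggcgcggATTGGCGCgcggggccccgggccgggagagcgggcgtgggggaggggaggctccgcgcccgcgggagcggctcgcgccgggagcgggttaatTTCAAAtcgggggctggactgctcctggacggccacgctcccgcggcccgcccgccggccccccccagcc
Cdt1: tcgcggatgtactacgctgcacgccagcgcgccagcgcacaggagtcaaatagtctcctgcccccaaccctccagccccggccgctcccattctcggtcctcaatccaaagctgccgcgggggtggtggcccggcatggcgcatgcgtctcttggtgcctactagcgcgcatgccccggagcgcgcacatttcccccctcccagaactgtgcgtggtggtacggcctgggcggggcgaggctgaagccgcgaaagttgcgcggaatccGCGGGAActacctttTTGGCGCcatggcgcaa
Ndc80: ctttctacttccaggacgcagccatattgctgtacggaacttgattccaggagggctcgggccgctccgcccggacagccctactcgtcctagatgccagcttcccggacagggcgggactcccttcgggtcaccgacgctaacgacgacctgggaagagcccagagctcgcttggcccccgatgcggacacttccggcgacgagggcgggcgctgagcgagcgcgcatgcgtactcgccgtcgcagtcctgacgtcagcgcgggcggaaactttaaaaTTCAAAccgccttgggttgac
Bub1: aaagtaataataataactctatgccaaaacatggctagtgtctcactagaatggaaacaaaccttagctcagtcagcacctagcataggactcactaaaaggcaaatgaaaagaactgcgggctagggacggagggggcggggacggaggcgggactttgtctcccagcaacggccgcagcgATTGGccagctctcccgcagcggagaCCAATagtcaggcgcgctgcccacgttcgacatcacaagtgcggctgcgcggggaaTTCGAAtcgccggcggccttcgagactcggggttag
In E2f8 the reverse CCAAT box and the E2F core share letters, from position -112 relative to the start, and a CHR begins at -20. Cdt1 has 2 E2F cores after its start and neither of the other motifs. Ndc80 has a CHR alone, and Bub1 has a CHR with 2 CCAAT boxes and no E2F core.

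Over all windows, the motifs divided the module by phase. A CHR was in 13 of 18 mitotic windows (72.2%) and 4 of 22 S phase windows (18.2%), against 19.2% of all 32851 promoter windows. E2F cores ran the other way, with 15 of 22 S phase windows (68.2%) and 3 of 18 mitotic windows (16.7%), against 9.57% of all windows. CCAAT was common in both, at 68.2% of S phase and 77.8% of mitotic windows, against 37.4% of all windows, and a CHR together with CCAAT stood in 66.7% of mitotic windows, 18.2% of S phase windows and 7.52% of all windows. The windows of Ccne1, E2f1, Tk1, Tyms, Birc5, Mybl2 and Nuf2 had none of these letters. Windows follow annotated starts, and whether a start lies inside the gene, as for an alternative transcript, was not examined. An empty window, such as that of E2f1, therefore does not show that the gene's promoter lacks these sites. A match describes letters only and says nothing about binding in these tumours.

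None of the 43 members had a mean signal under the 25th percentile of all genes (4.91), and 3 Y-linked genes, which mark the background since the hosts were female, ran from 2.61 to 3.85. The line labels were checked on their markers: Erbb2 averaged 11.30 in NDL, 7.47 in Met1 and 8.80 in SSM2, and Pgr, the progesterone receptor, averaged 4.87 in NDL, 4.50 in Met1 and 9.31 in SSM2. Arrays have no read depth, and the upper quartile over genes stood at 7.85, 7.84 and 8.09 on the NDL arrays, with 8.02 to 8.05 for Met1 and 7.98 to 8.08 for SSM2. Values below are given in the order of the replicate numbers.

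Met1 tumours carried the highest mean for 30 of the 43 members (69.8%), against 28% of all genes. Of the 9969 genes with a mean signal above the median, 36.2% were highest in Met1. The count of members was close in the S phase list (15 of 21) and the mitotic list (15 of 22). NDL had the lowest mean for 22 members (51.2%, against 28.9% of all genes) and SSM2 for 16 (37.2%, against 42.8% of all genes). With all genes fitted in limma and p adjusted by Benjamini-Hochberg, 7 of 43 members (16.3%) differed between the 3 lines in the F-test at an adjusted p under 0.05, a smaller share than the 25.1% of all genes. These were Cdt1, Tk1, E2f8, Ccna2, Birc5, Kif20a and Ndc80. Only Tk1, E2f8, Ccna2 and Birc5 passed as highest in Met1 against both other lines (4 of 43, background 4.09% of all genes), and no member passed as lowest in Met1 (2.18% of all genes), highest or lowest in NDL (5.13% and 3.59% of all genes), or highest or lowest in SSM2 (1.91% and 2.26%).

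**Figure D1:**
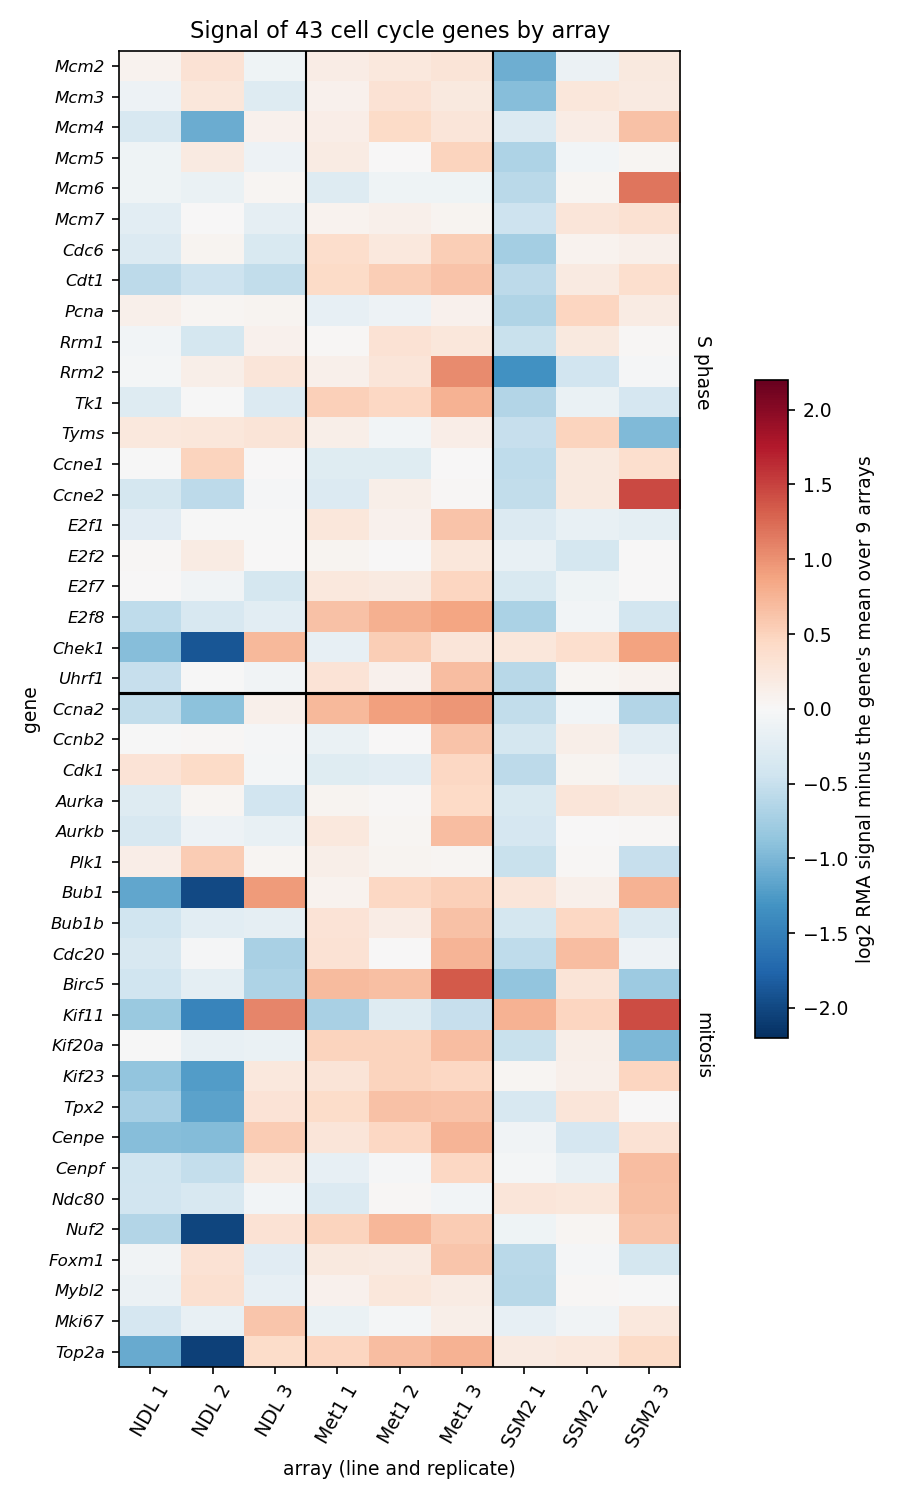
Signal of the 43 members (rows, S phase above and mitosis below the black line) on each array (columns, by line and replicate), as the log2 RMA signal minus the gene's mean over the 9 arrays. Cdt1, Tk1, E2f8, Ccna2 and Birc5 are red on all 3 Met1 arrays. Bub1, Kif11, Nuf2 and Top2a are blue on NDL 1 and NDL 2 and red on NDL 3, and most S phase rows are blue on SSM2 1.

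Among the S phase members, 2 of 4 E2F factors were called. E2f8, an atypical E2F that represses other E2F targets late in S phase (feature 10563780, chromosome 7), read 6.94, 7.15 and 7.27 in NDL, 8.15, 8.28 and 8.37 in Met1, and 6.81, 7.45 and 7.09 in SSM2. Every Met1 array lay above all 6 others, while NDL and SSM2 overlapped. The log2 difference was -1.15 (SE 0.17) for NDL minus Met1, a 2.22-fold lower level (limma adjusted p = 0.00226), and 1.15 (SE 0.17) for Met1 minus SSM2 (adjusted p = 0.00345), and both calls held with any 1 array left out. E2f7, its closest relative, had the same order at a smaller size, with -0.46 (adjusted p = 0.0596) for NDL minus Met1 and 0.44 (adjusted p = 0.0911) for Met1 minus SSM2, and no Met1 array overlapped the other lines.

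E2f1, an activating E2F of S phase entry (feature 10488785, chromosome 2), read 7.39, 7.64 and 7.63 in NDL, 7.89, 7.73 and 8.28 in Met1, and 7.34, 7.47 and 7.42 in SSM2. Met1 was higher than SSM2 by 0.55 (SE 0.15, adjusted p = 0.0491), while the F-test over the 3 lines missed the threshold (adjusted p = 0.0556). The call was lost without any 1 array of NDL or SSM2 and without Met1 replicate 1 or 3 (adjusted p from 0.0538 to 0.12). NDL minus Met1 was -0.41 (adjusted p = 0.0949), although no array of these lines overlapped. E2f2, also an activator, differed by at most 0.29 in any contrast and its arrays overlapped in all 3.

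Of the 2 licensing factors, Cdt1 was lower in NDL than in Met1. Cdt1, which loads the MCM helicase with Cdc6 (feature 10576140, chromosome 8), read 7.72, 7.83 and 7.74 in NDL, 8.71, 8.83 and 8.92 in Met1, and 7.71, 8.48 and 8.66 in SSM2. The NDL arrays were close to each other (SD 0.06) and below every Met1 array, and SSM2 replicate 1 sat with NDL while SSM2 replicates 2 and 3 sat near Met1. NDL was 2.08-fold lower than Met1 (-1.06, SE 0.22, adjusted p = 0.0122), while Met1 minus SSM2 (0.54, adjusted p = 0.186) and NDL minus SSM2 (-0.52, adjusted p = 0.139) did not pass. Cdc6 itself had -0.58 for NDL minus Met1 (adjusted p = 0.128) and 0.58 for Met1 minus SSM2 (adjusted p = 0.179), with Met1 arrays above all others.

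Of the 6 MCM genes, which encode the helicase that these factors load, none passed in any contrast, and their median differences were -0.23 for NDL minus Met1, -0.04 for NDL minus SSM2 and 0.24 for Met1 minus SSM2. Mcm4 had the largest difference, at -0.73 (SE 0.32, adjusted p = 0.153) for NDL minus Met1, with 7.96, 7.22 and 8.41 in NDL against 8.47, 8.74 and 8.58 in Met1. For Mcm4 the spread was widest in NDL (SD 0.60), and for the other MCM genes it was widest in SSM2, where Mcm2 read 8.23, 9.18 and 9.52 and Mcm6 read 8.95, 9.58 and 10.73. Pcna, the sliding clamp of DNA polymerases, differed by at most 0.14 between line means, against an SD of 0.59 within SSM2 (9.62, 10.75 and 10.47). Its 2 features on the array gave nearly the same values.

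Of the 4 genes of nucleotide supply, Tk1 passed. Tk1, thymidine kinase of the salvage pathway (feature 10582809, with the gene itself on chromosome 11), read 8.94, 9.21 and 8.92 in NDL, 9.75, 9.68 and 9.98 in Met1, and 8.57, 9.08 and 8.86 in SSM2. NDL was 1.72-fold lower than Met1 (-0.78, SE 0.16, adjusted p = 0.00924), and Met1 was 1.96-fold higher than SSM2 (0.97, SE 0.16, adjusted p = 0.005). A second feature with the Tk1 symbol (10393431) had the same order, with 8.19, 8.61 and 8.27 in NDL, 9.12, 9.19 and 9.31 in Met1, and 8.11, 8.40 and 8.09 in SSM2. By number, 10393431 lies near a feature of another chromosome 11 gene (Pecam1, 10392221). The feature used, 10582809, lies between those of Gins2 (10582190, chromosome 8) and Cd3d (10584821, chromosome 9). It may thus read a near-identical copy of the gene elsewhere, but feature positions were not examined.

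Rrm2, the regulated subunit of ribonucleotide reductase, had a Met1 minus SSM2 difference as large as that of Tk1 (1.07) but missed the threshold (SE 0.35, adjusted p = 0.0926). Its arrays read 9.70, 9.85 and 10.64 in Met1 against 8.25, 9.18 and 9.56 in SSM2, which do not overlap but are widely spread. Rrm1, the other subunit, differed by at most 0.31. Tyms, thymidylate synthase of the de novo route, was tight in NDL (8.52, 8.55 and 8.58) and Met1 (8.41, 8.23 and 8.43) and ran from 7.32 to 8.77 in SSM2.

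The remaining S phase members did not pass in any contrast. Ccne1 and Ccne2, the cyclins that bring Cdk2 into S phase, differed by 0.34 or less and 0.70 or less. Ccne2 read 5.15, 5.90 and 7.13 in SSM2, with an SD of 1.00. Uhrf1, which brings maintenance DNA methylation to replicated DNA, stood at -0.56 for NDL minus Met1 (adjusted p = 0.141) and 0.52 for Met1 minus SSM2 (adjusted p = 0.224), with no overlap in either. Chek1, the replication checkpoint kinase, read 5.92, 4.99 and 7.58 in NDL, against 6.68, 7.40 and 7.12 in Met1 and 7.11, 7.22 and 7.74 in SSM2. Its NDL arrays spanned more than the gap between any pair of line means (NDL SD 1.31).

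Among the mitotic members, Ccna2 and Birc5 were highest in Met1. Ccna2, cyclin A2, which serves S phase and early mitosis (feature 10497831, chromosome 3), read 8.72, 8.35 and 9.36 in NDL, 9.97, 10.15 and 10.23 in Met1, and 8.71, 9.20 and 8.60 in SSM2. All Met1 arrays lay above the other 6. NDL was 2.47-fold lower than Met1 (-1.31, SE 0.26, adjusted p = 0.00898), and Met1 was 2.43-fold higher than SSM2 (1.28, SE 0.26, adjusted p = 0.0142). Without Met1 replicate 2 or 3 the call against SSM2 was lost (adjusted p = 0.0553 and 0.0552). The other cyclin and the shared kinase had no call: Ccnb2 differed by at most 0.32 and Cdk1 by at most 0.44, with arrays overlapping in every contrast, and Cdk1 had its highest mean in NDL.

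Birc5, survivin of the chromosomal passenger complex (feature 10382998, chromosome 11), read 7.58, 7.80 and 7.34 in NDL, 8.72, 8.68 and 9.37 in Met1, and 7.15, 8.31 and 7.22 in SSM2. Met1 arrays were above all others, with replicate 3 highest. The difference was -1.35 (SE 0.33, adjusted p = 0.0216) for NDL minus Met1 and 1.37 (SE 0.33, adjusted p = 0.0288) for Met1 minus SSM2. The call against NDL was lost without NDL replicate 1 (adjusted p = 0.0713) or Met1 replicate 3 (adjusted p = 0.0794), and that against SSM2 without NDL replicate 1, any 1 Met1 array, or SSM2 replicate 1 or 3 (adjusted p from 0.0555 to 0.101). Aurkb, the kinase of the same complex, had -0.53 (adjusted p = 0.084) and 0.42 (adjusted p = 0.205) in these contrasts. Aurka, which acts at spindle poles, differed by 0.40 or less. Plk1, the Polo kinase of mitotic entry, was the mitotic member with the highest NDL minus SSM2 difference (0.58, SE 0.18, adjusted p = 0.0628), at 9.17, 9.58 and 9.07 in NDL against 8.53, 9.04 and 8.51 in SSM2.

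**Figure D2:**
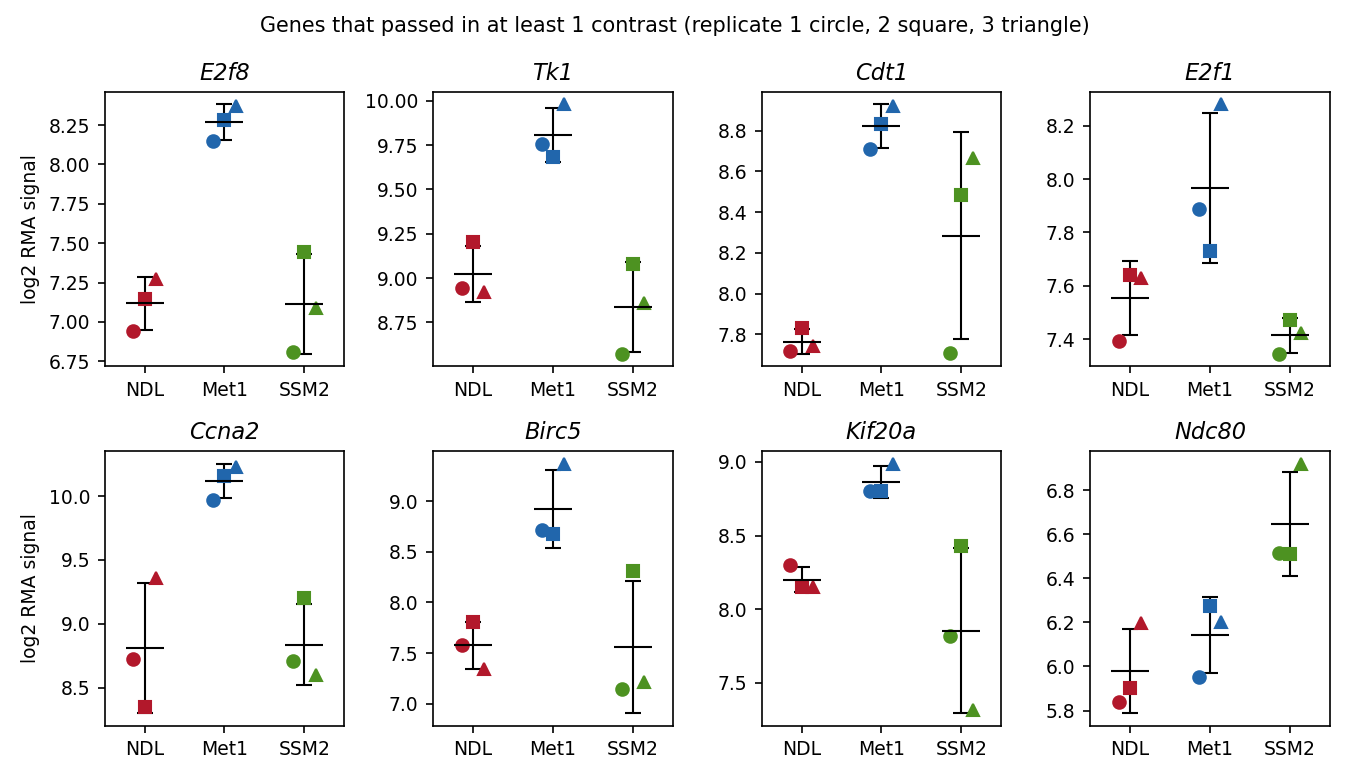
Log2 RMA signal (vertical axis, a separate scale for each gene) of the 8 members that passed in at least 1 contrast, by line, with replicates 1, 2 and 3 as circle, square and triangle and the mean and SD as bars. E2f8, Tk1, Ccna2 and Birc5 have every Met1 array above the other 6. Cdt1 separates NDL from Met1 with SSM2 spread between, and Ndc80 is highest in SSM2.

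Of 4 genes of motors and spindle assembly, Kif20a was called. Kif20a, a kinesin of cytokinesis (feature 10454709, chromosome 18), read 8.30, 8.15 and 8.15 in NDL, 8.80, 8.80 and 8.99 in Met1, and 7.82, 8.43 and 7.31 in SSM2. Met1 was 2.01-fold higher than SSM2 (1.01, SE 0.24, adjusted p = 0.0298), and NDL minus Met1 was -0.66 (adjusted p = 0.0961), with no overlap in either contrast. The call was lost without NDL replicate 1, any 1 Met1 array or SSM2 replicate 1 (adjusted p from 0.0549 to 0.102). Kif11, the motor that separates spindle poles, was lower in Met1 than in SSM2 on every array: it read 6.53, 6.96 and 6.74 in Met1, against 8.02, 7.73 and 8.69 in SSM2. The Met1 minus SSM2 difference of -1.40 did not pass (SE 0.57, adjusted p = 0.176), and the NDL arrays ran from 5.80 to 8.33, which enters the shared spread of the fit.

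Ndc80, a kinetochore subunit that binds microtubules (feature 10452709, chromosome 17), was the only member called between NDL and SSM2. It read 5.84, 5.90 and 6.20 in NDL, 5.95, 6.27 and 6.20 in Met1, and 6.52, 6.51 and 6.92 in SSM2. All SSM2 arrays lay above the other 6, by a narrow margin over Met1 replicate 2. NDL was 1.59-fold lower than SSM2 (-0.67, SE 0.16, adjusted p = 0.0237), and Met1 minus SSM2 was -0.51 (adjusted p = 0.0822). The call was lost without NDL replicate 1 (adjusted p = 0.0908), NDL replicate 2 (0.074) or SSM2 replicate 3 (0.0515). Nuf2, its partner in the same complex, had a different pattern, with 6.95, 5.58 and 7.92 in NDL, 8.08, 8.32 and 8.15 in Met1, and 7.50, 7.64 and 8.21 in SSM2. Its differences of -1.37 for NDL minus Met1 (adjusted p = 0.096) and -0.96 for NDL minus SSM2 (adjusted p = 0.203) did not pass.

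Foxm1 and Mybl2, transcription factors that activate mitotic genes, did not pass in any contrast. Foxm1 came nearest for Met1 minus SSM2 (0.67, SE 0.20, adjusted p = 0.0699), at 7.62, 7.61 and 8.03 in Met1 against 6.82, 7.39 and 7.03 in SSM2, which do not overlap. Mki67, the Ki-67 proliferation antigen, had the most even line means: 7.97 ± 0.51 in NDL, 7.92 ± 0.14 in Met1 and 7.93 ± 0.21 in SSM2 (SD, n = 3). Its arrays were less even, at 7.57, 7.78 and 8.55 in NDL, where replicate 3 lay 0.87 above the mean of the other 2. The differences between line means of Mki67 were within 0.05 with an SE of 0.24. Top2a, topoisomerase II alpha, had the largest difference of all members, -1.56 for NDL minus Met1, and missed the threshold (SE 0.51, adjusted p = 0.0655). Its arrays read 7.97, 7.01 and 9.47 in NDL, against 9.55, 9.74 and 9.83 in Met1 and 9.27, 9.30 and 9.49 in SSM2. A second Top2a feature (10390746) was near the background. It read 3.96, 3.66 and 3.68 in NDL, 4.67, 4.32 and 4.05 in Met1, and 3.77, 4.49 and 4.02 in SSM2, with no rise on NDL replicate 3.

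Counted by contrast in limma, NDL minus Met1 gave 5 members lower (Cdt1, Tk1, E2f8, Ccna2 and Birc5) and 0 higher, and at an unadjusted p under 0.05 17 lower and 0 higher, against 16.9% of all genes lower and 15.8% higher. The 5 are 11.6% of the module, near the 10.2% of all genes called lower, and 8.88% of all genes were called higher. Of the 43 differences, most of which did not pass, 35 were negative and the median was -0.40, against a median of 0.06 over all genes. Over the 9969 genes above the median signal, the median difference was -0.099. NDL replicate 3 was nearer to Met1 than the other NDL arrays, with a mean over the mitotic members of 8.14, against 8.21 for Met1 replicate 1. The arrays of the lines did not overlap for 20 of 43 members, with 38.2% of all genes doing so.

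NDL minus SSM2 gave 1 member lower, Ndc80, and 0 higher (4 and 1 at an unadjusted p under 0.05, where 14.7% of all genes were lower and 19.5% higher), or 2.33% of the module against 16.9% of all genes called in either direction (7.52% lower, 9.35% higher). The median difference was -0.03, against 0.09 over all genes and -0.06 over genes above the median signal. Arrays did not overlap for 2 members, Ndc80 and Plk1, against 31.6% of all genes. Met1 minus SSM2 gave 6 members higher (Tk1, E2f1, E2f8, Ccna2, Birc5 and Kif20a) and 0 lower (12 and 2 at an unadjusted p under 0.05, where 13.6% of all genes were higher and 10.1% lower). The 6 became 3 without NDL replicate 1, Met1 replicate 1 or 2, or SSM2 replicate 1 (5.77%, 4.15%, 4.37% and 7.23% of all genes), and 2 without Met1 replicate 3 (4.76% of all genes). The 6 are 14% of the module, against 7.1% of all genes called higher and 4.71% called lower. The median was 0.37, against 0.04 over all genes and 0.03 over genes above the median signal. Arrays did not overlap for 19 members, against 31.7% of all genes. The contrasts share arrays, so a high value in Met1 enters both of its contrasts. S phase and mitotic members had medians of -0.31 and -0.59 for NDL minus Met1, 0.0034 and -0.24 for NDL minus SSM2, and 0.40 and 0.36 for Met1 minus SSM2.

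**Figure D3:**
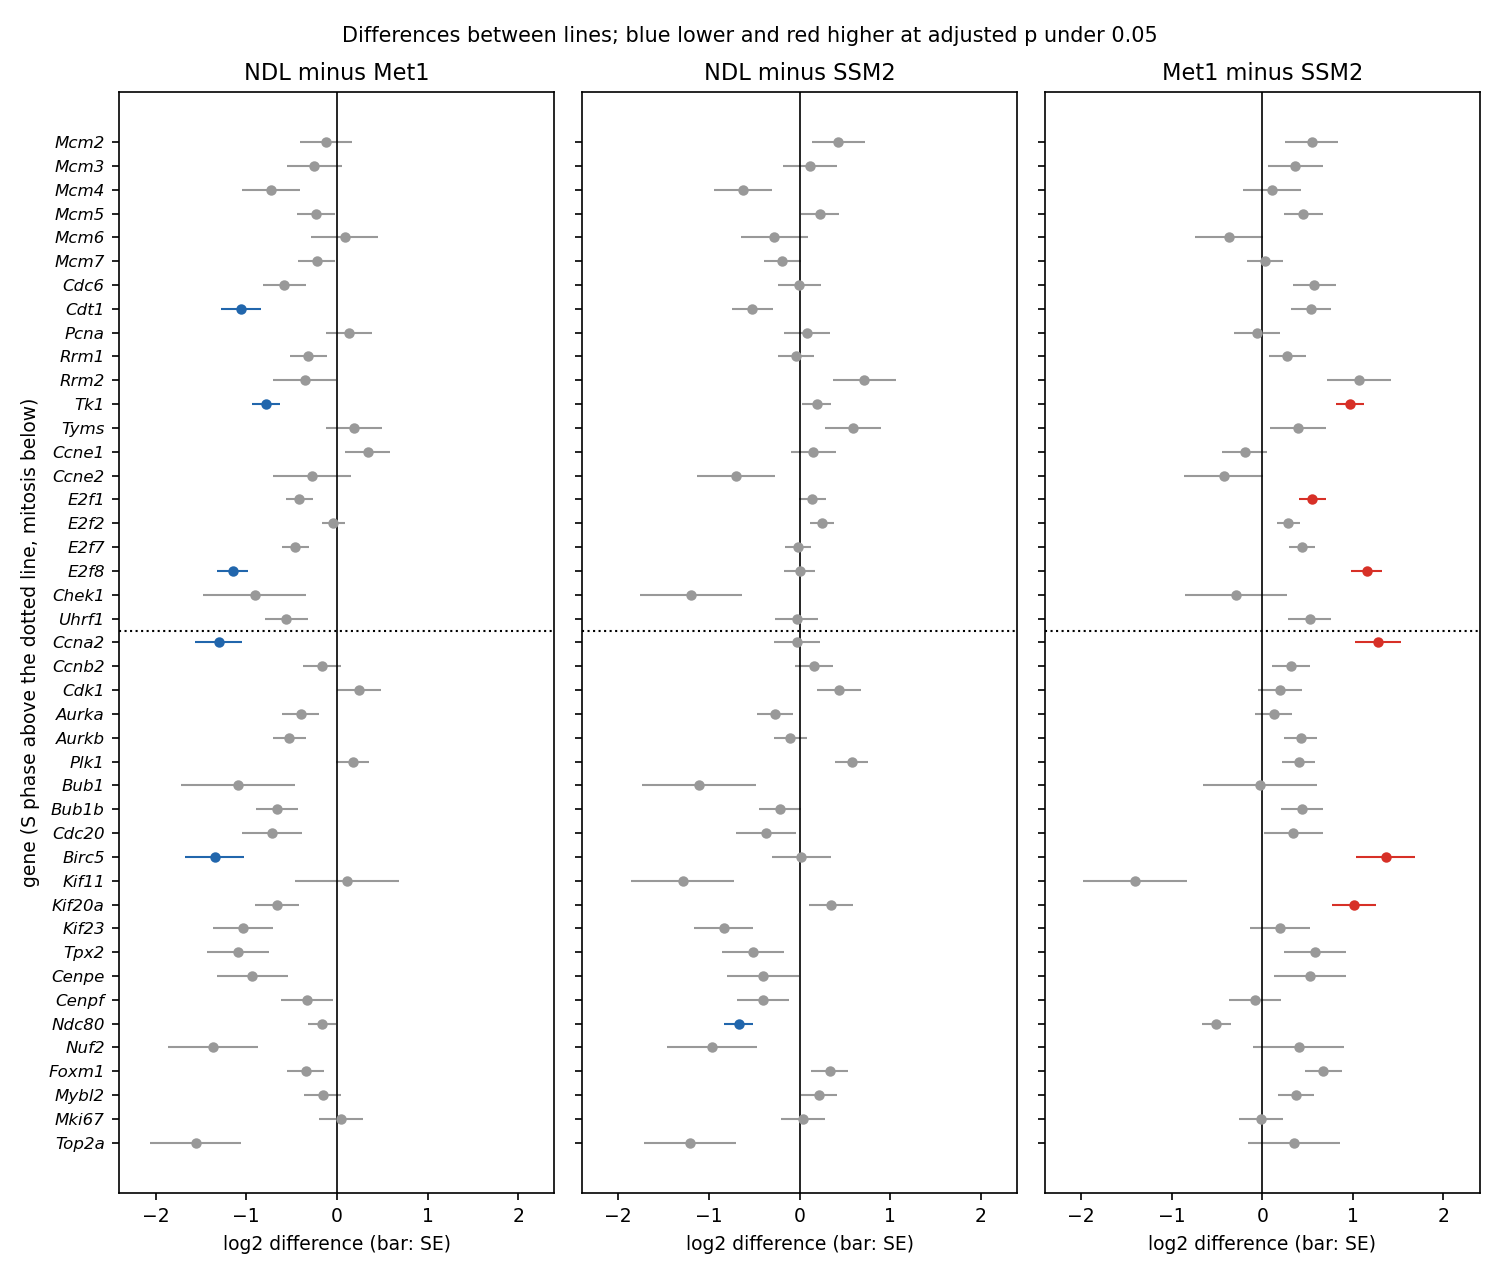
Log2 differences (horizontal axis) of the 43 members (rows) in the 3 contrasts, with the SE as a bar, in blue where called lower and red where called higher. NDL minus Met1 has 35 negative differences with 5 called, NDL minus SSM2 has 1 called, and Met1 minus SSM2 has 33 positive differences with 6 called. The widest bars belong to Bub1, Kif11, Chek1, Top2a and Nuf2.

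Arrays of one line did not read the module alike. NDL replicate 3 stood apart from NDL replicates 1 and 2 for a subset of members, 7 of 22 mitotic and 1 of 21 S phase, and for a smaller share of the whole array. It lay more than 1 log2 unit above the mean of the other 2 for 8 of 43 members (18.6%, against 7.23% of all genes): Bub1 by 2.51, Kif11 by 2.21, Chek1 by 2.12, Top2a by 1.98, Nuf2 by 1.65, Cenpe by 1.51, Kif23 by 1.27 and Tpx2 by 1.26. Bub1, the kinetochore kinase of the spindle checkpoint, read 5.83, 4.99 and 7.92 in NDL, against 7.06, 7.44 and 7.50 in Met1 and 7.24, 7.09 and 7.74 in SSM2. NDL replicate 3 was thus the highest of all 9 arrays and NDL replicate 2 the lowest. Bub1b and Cdc20, in the same checkpoint, had no such split, with 8.18, 8.38 and 8.41 for Bub1b and 7.95, 8.29 and 7.60 for Cdc20 in NDL.

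Counts of calls moved with this split. Without NDL replicate 3, 13 members were lower in NDL than in Met1 and 9 were lower than in SSM2, in place of 5 and 1. The share of all genes called lower also grew, to 16.4% in place of 10.2% against Met1 and to 15.2% in place of 7.52% against SSM2. With NDL replicate 3 as the lone NDL array, taken to vary like the other lines, 0 members passed in either contrast, where 3.66% of all genes were called lower than in Met1 and 1.82% lower than in SSM2. Against Met1, that array gave Tk1 a difference of -0.88 (adjusted p = 0.067) and Cdt1 -1.08 (adjusted p = 0.137), as large as with all arrays. E2f8 had -0.996 (adjusted p = 0.0658) in place of -1.15, and Ccna2 had -0.76 (adjusted p = 0.133) in place of -1.31. The upper quartile of signal over all genes was also lower in NDL replicates 1 and 2 (7.85 and 7.84) than in replicate 3 (8.09), and the part of that in the result was not tested.

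In SSM2, replicate 1 was the lowest of its line for 33 of 43 members (76.7%), against 28.9% of all genes, and for 19 of 21 S phase members. The median member lay 0.46 below the mean of the other 2 arrays. The same array had the highest list means of its line for fibroblast markers (11.18, against 10.42 and 9.47 in replicates 2 and 3), macrophage markers (9.69, against 9.0 and 8.28) and adipocyte markers (7.57, against 6.94 and 5.54). So it did for neutrophil markers (7.20, against 6.70 and 5.11), endothelial markers (7.86, against 7.51 and 7.11) and T cell markers (5.76, against 5.27 and 4.99). Its epithelial mean (10.72) lay between those of replicates 2 (10.53) and 3 (10.81). The part of these cells in the low S phase signal was not tested. In Met1, replicate 3 was the highest for 29 of 43 members (67.4%, against 38.7% of all genes), at a smaller size (median 0.21). The median SD over members was 0.24 in NDL, 0.15 in Met1 and 0.37 in SSM2, against 0.20, 0.11 and 0.18 over all genes.

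**Figure D4:**
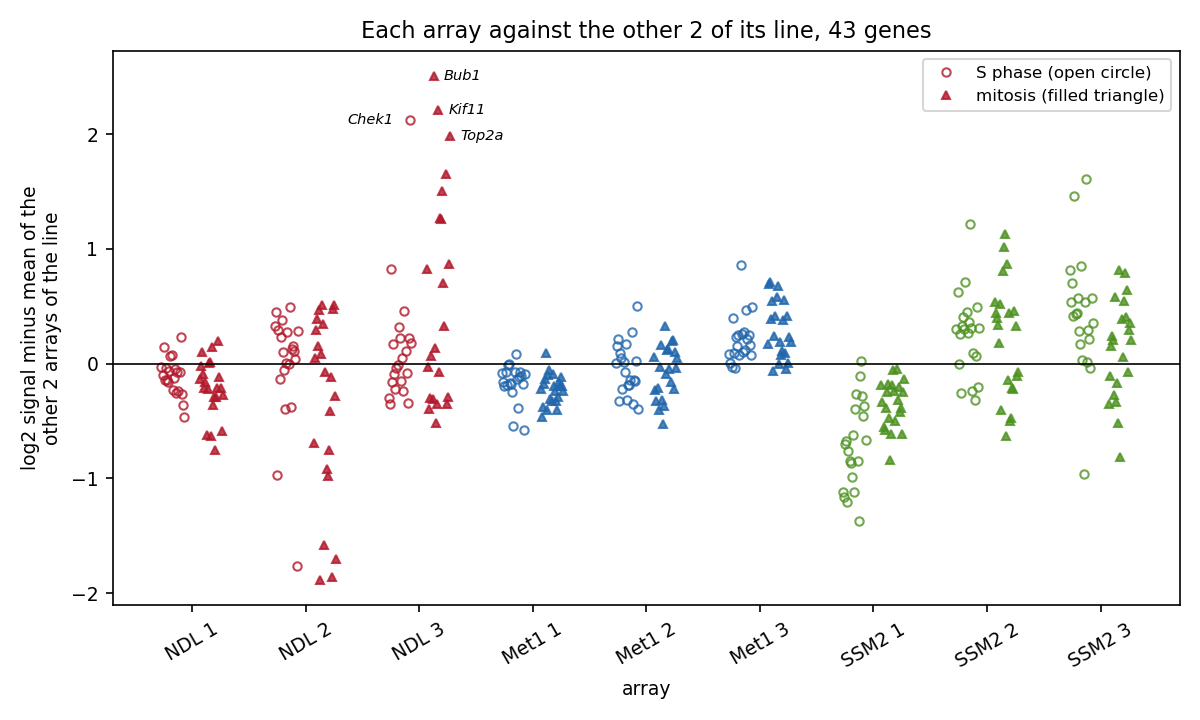
Difference of each array from the mean of the other 2 arrays of its line (vertical axis, log2) for the 43 members, with S phase members as open circles and mitotic members as filled triangles. On NDL 3, Bub1, Kif11, Chek1 and Top2a lie about 2 log2 units up or more. On SSM2 1 nearly all S phase members lie below 0.

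The balance of the phases varied between arrays of a line. The mean log2 signal over S phase members was 8.21 ± 0.08 for NDL, 8.57 ± 0.13 for Met1 and 8.24 ± 0.41 for SSM2 (SD, n = 3), and over mitotic members it was 7.76 ± 0.34 for NDL, 8.36 ± 0.18 for Met1 and 8.04 ± 0.20 for SSM2. The S phase mean minus the mitotic mean was 0.52, 0.67 and 0.15 in NDL, 0.25, 0.23 and 0.15 in Met1, and -0.04, 0.23 and 0.40 in SSM2. These ranges overlap in all lines, and NDL replicate 3 lay with Met1 replicate 3.

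Genes of the same pathways outside the module were counted in the same fit, where the shares of all genes were 10.2% lower and 8.88% higher for NDL minus Met1, 7.52% lower and 9.35% higher for NDL minus SSM2, and 7.1% higher and 4.71% lower for Met1 minus SSM2. Of 38 other replication genes, 9 were lower and 2 higher in NDL than in Met1, 2 lower and 2 higher in NDL than in SSM2, and 3 higher (7.89%, near the share of all genes) and 0 lower in Met1 than in SSM2. Pole2, a subunit of DNA polymerase epsilon, averaged 7.57 ± 0.04 for NDL, 8.00 ± 0.30 for Met1 and 6.46 ± 0.49 for SSM2 (SD, n = 3). Met1 was higher than SSM2 by 1.54 (limma adjusted p = 0.00468). NDL was also higher than SSM2, by 1.11 (adjusted p = 0.0173, and up to 0.0589 with 1 array left out). Cdc45, part of the active helicase, was higher in Met1 than in SSM2 by 0.77 (adjusted p = 0.0126, and up to 0.0511 with 1 array left out). Chaf1a and Chaf1b, subunits of the same histone chaperone, had NDL minus Met1 differences of opposite sign, at -1.07 (adjusted p = 0.0111) and 0.80 (adjusted p = 0.0447). The call of Chaf1b was lost with 1 array left out (adjusted p up to 0.129).

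Of 45 other mitotic genes, 11 were lower and 0 higher in NDL than in Met1 (24.4%), 2 lower and 2 higher in NDL than in SSM2, and 7 higher and 0 lower in Met1 than in SSM2. Cdca2 was lower in NDL than in Met1 (-1.39, adjusted p = 0.00178) and higher in Met1 than in SSM2 (1.07, adjusted p = 0.00931). Racgap1, a cytokinesis regulator, was higher in Met1 than in SSM2 by 0.86 (adjusted p = 0.00248). The NDL split recurred here, with 18 of 45 genes (40%, against 7.23% of all genes) more than 1 above the other 2 arrays on NDL replicate 3. For the other replication genes this count was 3 of 38 (7.89%), near the share of all genes.

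Transcripts of replication-dependent histone genes build up in S phase. The histone list here was taken by name, was not checked for this and holds a pseudogene, H2bu1-ps. Of its 30 genes, 7 were lower and 0 higher in NDL than in Met1, and 0 passed between NDL and SSM2. In Met1, 5 were higher and 0 lower than in SSM2. At an unadjusted p under 0.05 these were 12 lower, 1 lower and 12 higher, with 0 the other way. H1f2 averaged 7.78 ± 0.22 for NDL, 9.32 ± 0.40 for Met1 and 8.10 ± 0.29 for SSM2 (SD, n = 3), with adjusted p of 0.00235 and 0.0101 for the Met1 contrasts. Histone genes are near-identical in sequence, so signal of single genes is uncertain. The histone list mean did not show the NDL split: it was 7.25, 7.35 and 6.89 in NDL, with replicate 3 lowest, against 7.89, 7.53 and 7.68 in Met1 and 6.97, 7.33 and 7.41 in SSM2.

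Of 28 regulators of S phase entry, 8 were lower and 1 higher in NDL than in Met1, 2 lower and 2 higher in NDL than in SSM2, and 3 higher and 0 lower in Met1 than in SSM2. At an unadjusted p under 0.05 the counts of 0 in Met1 minus SSM2 became 1 replication gene, 1 mitotic gene and 2 regulators. Ccnd1, cyclin D1, averaged 11.80 ± 0.17 for NDL, 12.28 ± 0.05 for Met1 and 9.90 ± 0.12 for SSM2 (SD, n = 3). It was higher in NDL than in SSM2 by 1.90 (adjusted p = 3.14e-05) and in Met1 than in SSM2 by 2.37 (adjusted p = 2.24e-05). Cdkn2a, the locus of the inhibitors p16Ink4a and p19Arf, was lower in NDL than in Met1 (7.34 ± 0.35 against 10.17 ± 0.18, difference -2.82, adjusted p = 0.0124), as were Cdk6 (-1.82, adjusted p = 0.0236) and Ccnd2 (-1.68, adjusted p = 0.0129), partners of each other in early G1. With 1 array left out, both calls were lost (adjusted p up to 0.0935 for Cdk6 and 0.056 for Ccnd2).

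Markers of cell types differed between the same lines. All 10 epithelial markers were higher in NDL than in Met1 and lower in Met1 than in SSM2, with list means of 10.16 to 10.30 for NDL, 6.01 to 7.61 for Met1 and 10.53 to 10.81 for SSM2. Of 8 macrophage markers, 7 were lower in NDL than in Met1 and 4 higher in Met1 than in SSM2, with list means of 8.24 to 8.95 for NDL, 9.97 to 10.23 for Met1 and 8.28 to 9.69 for SSM2. Of 5 T cell markers, 2 were lower in NDL than in Met1 and 2 higher in Met1 than in SSM2 (5.39 to 5.92 for NDL, 5.98 to 6.24 for Met1, 4.99 to 5.76 for SSM2). Fibroblast markers, 6 in number, had list means of 9.30 to 9.78 for NDL, 8.07 to 9.12 for Met1 and 9.47 to 11.18 for SSM2, and did not move as one: 3 were higher and 1 lower in NDL than in Met1, 1 was lower in NDL than in SSM2, and 1 was higher and 3 lower in Met1 than in SSM2. List means of 5 endothelial markers were 6.78 to 6.93 for NDL, 6.68 to 7.02 for Met1 and 7.11 to 7.86 for SSM2, with 2 lower in NDL than in SSM2 and 1 lower in Met1 than in SSM2. The 4 adipocyte markers (5.87 to 6.91 for NDL, 5.50 to 6.29 for Met1, 5.54 to 7.57 for SSM2) and 4 neutrophil markers (4.99 to 5.73 for NDL, 5.73 to 5.82 for Met1, 5.11 to 7.20 for SSM2) had 0 calls in limma, and at an unadjusted p under 0.05 1 adipocyte marker was lower in Met1 than in SSM2 and 2 neutrophil markers were lower in NDL than in SSM2, while 2 B cell markers lay between 3.18 and 3.69, near background. The part of these cells in the Met1 signal of cell cycle genes was not tested.

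**Figure D5:**
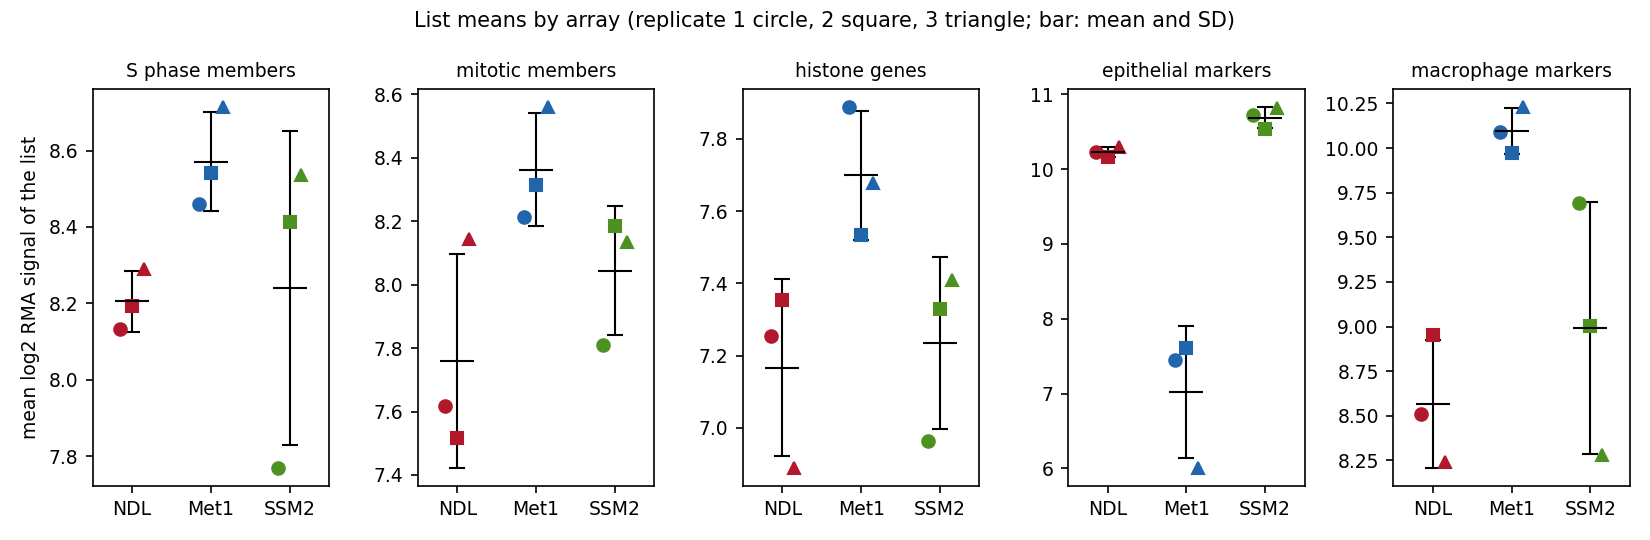
Mean log2 RMA signal over the genes of 5 lists (vertical axis, a separate scale for each panel) on each array, by line, with replicates 1, 2 and 3 as circle, square and triangle and the mean and SD as bars. Epithelial markers are lowest and macrophage markers highest in Met1. The S phase mean of SSM2 replicate 1 (7.77) is the lowest of all 9 arrays, while the mitotic mean is lowest on NDL replicate 2 (7.52).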

How the data were processed

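The authors deposited log2 signals from RMA in oligo 1.40.2, per the submitters' processing notes, with a probe build not given in the sources used here. Of 35556 features, 21789 carried 1 gene symbol and were kept, 21698 of them matched to RefSeq names. For 999 genes with several features, the one with the highest mean was used, leaving 19938 genes with no filter. Lines were compared in limma 3.58.1 (R 4.3.3, with the data.table package, version 1.17.8) with lmFit and eBayes on all 9 arrays (6 residual and 2.42 prior degrees of freedom), by an F-test and by 3 contrasts (two-sided), with Benjamini-Hochberg adjustment over all genes in each. Errors of differences are standard errors and those of means are SDs. The procedure was tested on simulated data, whose outcome is not given here. Every member may be named; of each other list, up to 3 called genes with the largest difference per direction. The members and lists were chosen with earlier results of these data known. Batches were not examined, for want of hybridisation or scan dates in the sources used here. Arrays number 3 per line, which limits precision. Plots used pandas 2.3.3 and matplotlib 3.10.9.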

Additional observations from a re-analysis of the deposited data

How the results depend on the processing

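Of the 12 calls, those of E2f8 and Tk1 for Met1 minus SSM2 held in 20 of 20 alternatives, and those of E2f8, Tk1, Cdt1 and Ccna2 for NDL minus Met1 in 19 of 20. E2f1 held in 6 of 20. No difference of a called member changed sign. Members lower in NDL than in Met1, 5 in all, were 8 with genes above the 25th percentile or the median of signal, with array weights, or with the 2 lines fitted alone, where 14.2%, 19.2%, 11.6% and 10.8% of all genes were lower, in place of 10.2%. They were 0 with NDL replicates 1 and 2 left out together (3.66% of all genes), and 4 to 13 with 1 array left out (5.77% to 16.4%). Members lower in NDL than in SSM2 (1) were 0 with genes above the median (where Ndc80 is not tested), array weights, the 2 lines alone, or NDL replicates 1 and 2 left out, and 0 to 9 with 1 array left out, at 3.4% to 15.2% of all genes (0 without NDL replicate 1 or 2 or SSM2 replicate 3, 3 without SSM2 replicate 1, 9 without NDL replicate 3). Members higher there (0) were 0 to 3 with 1 array left out: 1 without NDL replicate 3, and 3, namely Tyms, Plk1 and Kif20a, without SSM2 replicate 2. Members higher in Met1 than in SSM2 (6) were 3 with the 2 lines alone or NDL replicates 1 and 2 left out, and 2 to 7 with 1 array left out (4.15% to 8.06% of all genes, in place of 7.1%). Members lower there (0) were 2 with array weights (Kif11 and Ndc80), 1 (Kif11) with the 2 lines alone or NDL replicates 1 and 2 left out, and 0 to 1 with 1 array left out. The F-test's 7 were 12 with array weights, 4 with NDL replicates 1 and 2 left out, and 3 to 17 with 1 array left out (3 without NDL replicate 1 or Met1 replicate 1 or 3, 4 without NDL replicate 2, 17 without NDL replicate 3). The causes were not tested. Deviations of arrays with the same replicate number correlated at r from -0.347 to 0.288 over 9 pairs. Arrays with different numbers ranged from -0.329 to 0.34, so no pairing by number was seen. So few arrays per line cannot exclude a pairing or a shared batch. With the replicate number as a block, 6 members were lower in NDL than in Met1, 1 lower and 1 higher (Plk1) in NDL than in SSM2, 5 higher in Met1 than in SSM2 (E2f1 and Kif20a were lost and Rrm2 was gained), and 7 passed the F-test.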

Other observations

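Tk1 and Birc5 lie near each other on chromosome 11 in RefSeq order (GRCm38.p6), with Afmid between them, so genes next to the 8 called members were read as well, a choice made after the values were seen. For each member, the 8 nearest protein-coding genes on either side with signal above the median of all genes were taken. Only the called members themselves were left out, so other cell cycle genes stayed in. Cdc25c, from the list of other mitotic genes, was beside Kif20a, and Plk4, another Polo-like kinase, was beside Ccna2. The mean was highest in Met1 for 12 of 16 neighbours of Birc5 and 13 of 16 of Tk1, which share most of these genes, and for 11 of 16 of Ccna2 on chromosome 3, against 36.2% of the 9969 genes above the median. Neighbours of E2f8 (4 of 16), E2f1 (6 of 16) and Cdt1 (7 of 16) had smaller shares than those of Birc5, Tk1 and Ccna2. So did those of Kif20a (8 of 16) and Ndc80 (8 of 16). Among these smaller shares, only that of E2f8 was below the 36.2% of genes above the median. The neighbours of Ndc80 had a median of -0.88 for NDL minus Met1 and 0.09 for Met1 minus SSM2, while Ndc80 itself had -0.16 and -0.51.

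Beside Birc5, the neighbours' median difference was -0.84 for NDL minus Met1 and 0.88 for Met1 minus SSM2, where Birc5 had -1.35 and 1.37. Septin9, a cytoskeletal septin, had -1.35 and 1.27. Pgs1, an enzyme of cardiolipin synthesis, had -1.45 and 1.34, and Usp36, a nucleolar deubiquitinase, had -1.48 and 1.53. Others did not share the pattern: Tmc6 had 0.23 and 0.58, and Cyth1 0.14 and 0.60. None of these named neighbours of Birc5 belongs to the cell cycle lists. Beside Ccna2, the neighbours' median was -1.26 for NDL minus Met1 and 0.54 for Met1 minus SSM2, where Ccna2 had -1.31 and 1.28. For NDL minus SSM2 these neighbours had a median of -0.76, where Ccna2 had -0.03. Exosc9, an RNA exosome subunit next to Ccna2, had -1.67 and 1.05, while Dcun1d1 had -1.16 and -0.46. The comparison has no test, and gene dosage was not measured.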
